A study of Mus musculus with 3 samples.

Results

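The genes described here encode 10 surface molecules through which macrophages costimulate, restrain or adhere to lymphocytes and other cells. They were taken by symbol from the list Cd80, Cd86, Cd274, Pdcd1lg2, Icosl, Cd83, Cd44, Cd69, Icam1 and Vcam1, and all 10 were found among the 55536 annotated genes (22028 of them protein-coding) of the deposited tables. The RNA came from primary macrophages grown from bone marrow of C57BL/6J mice and exposed for 60 min to 100 ng/ml of Lipid A, a bacterial ligand of Toll-like receptor 4. Total RNA of the cytosolic fraction was depleted of ribosomal RNA, and each library was made from 1 µg. All 3 libraries form 1 group and are called replicates 1, 2 and 3 as labelled. Unstimulated cells, other times and the nuclear fraction were not analysed here, so the values are levels in stimulated cytosol and not responses to Lipid A. The labels give 1 donor entry for all 3 libraries and do not say whether the cultures were of separate mice. The p-values therefore reflect how far these samples vary, and that variation may be technical.

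A T cell that meets antigen also reads other ligands on the presenting cell. CD80 and CD86 bind the activating receptor CD28 and the inhibitory receptor CTLA-4, ICOS ligand binds ICOS, and PD-L1 and PD-L2 (encoded by Cd274 and Pdcd1lg2) bind the inhibitory receptor PD-1. CD83 keeps MHC class II and CD86 on the surface by opposing the ubiquitin ligase MARCH1, and CD69 is an early activation antigen of lymphocytes that holds the sphingosine phosphate receptor S1PR1 inside the cell. ICAM-1 and VCAM-1 are bound by leukocyte integrins, and CD44 binds hyaluronan and is made in many splice forms.

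The libraries held 63944236, 71989793 and 69305836 expected counts in annotated genes for replicates 1, 2 and 3, and the 9 members of at least 1 TPM had between 1064 (Cd69, replicate 3) and 98366 counts (Cd83, replicate 1). TPM (the transcript abundance unit of the tables) scales counts by transcript length and library, so levels of different genes can be compared on it. The 7SL RNAs alone took 57.2, 69.6 and 62.2% of TPM in replicates 1, 2 and 3, and the median tested protein-coding gene stood at 9.08, 5.76 and 6.86 TPM. Levels are therefore also given relative to that median. All 8 macrophage markers lay above it, with Lyz2 at 5032, Cd68 at 693, Cd14 at 485 and Csf1r at 241 TPM on average. Of 38 markers of other cell types, 5 reached 1 TPM, namely Vwf (9.18), Kdr (2.28), Cd22 (2.05), Ngp (1.92) and Batf3 (1.25 TPM).

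Each of the 9 genes of at least 1 TPM was tested for a level more than 2-fold above or below the median gene, with limma's treat on log2(TPM + 0.1) and Benjamini-Hochberg adjustment over all 9123 tested protein-coding genes. Cd83, Icam1, Cd44 and Cd274 lay above it, 4 of 9, where 26.3% of all tested genes did. None of the 9 lay below it, where 24.5% of all tested genes did, and Cd86, Vcam1, Icosl, Cd69 and Cd80 were not called. Pdcd1lg2 was under 1 TPM and was not tested. In bulk RNA, fewer cells with a message and less of it per cell cannot be told apart.

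**Figure D1:**
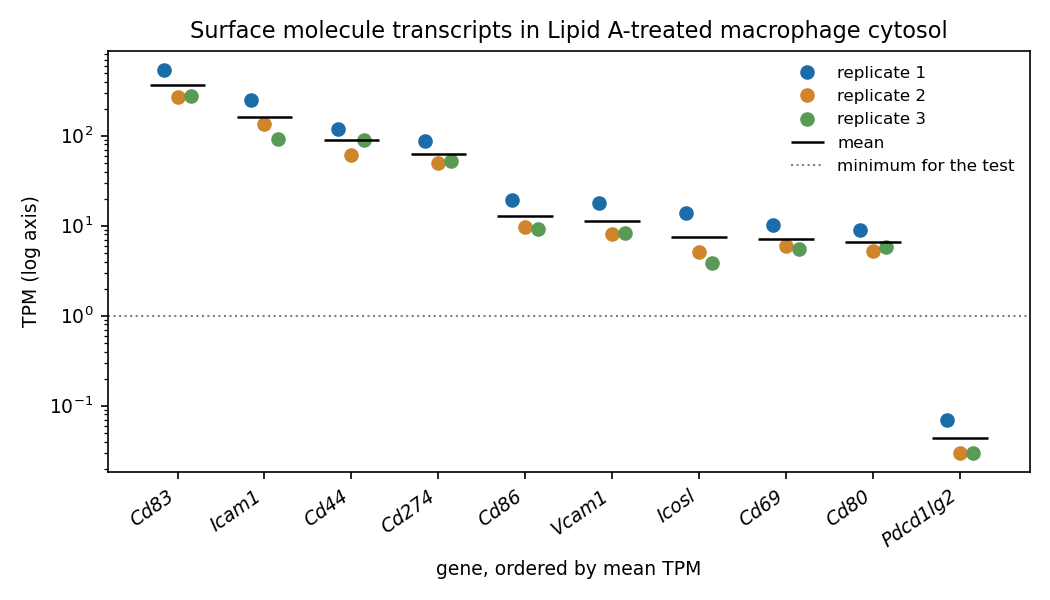
TPM (log axis) of the 10 surface molecule genes in each of the 3 libraries (points) with the mean (line). Cd83, counted over all its transcripts, leads at 272 to 539 TPM, 8 further genes lie between 3.81 and 252 TPM, and Pdcd1lg2 lies between 0.03 and 0.07 TPM.

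Among the costimulatory ligands, Cd86 (chr16:36603869-36666081, minus strand, GRCm38) had 19.2, 9.62 and 9.17 TPM in replicates 1, 2 and 3. Its mean of 12.7 ± 5.65 TPM (SD, n = 3) was 0.74 ± 0.12 (SE) above the median gene in log2 units, inside the band of 1, and its adjusted p by limma was 1. Cd80 (chr16:38455561-38496335, plus strand) had 8.89, 5.17 and 5.87 TPM, with a mean of 6.64 ± 1.98 TPM. It stood at -0.13 ± 0.06 relative to the median gene in log2 units (adjusted p by limma = 1). The level of Cd86 exceeded that of Cd80 in all 3 libraries, by 2.16, 1.86 and 1.56 times. Icosl (chr10:78069302-78083913, plus strand), which encodes the ICOS ligand, had 13.8, 5.06 and 3.81 TPM. Replicate 1 was 3.63 times replicate 3, so that the mean of 7.57 TPM had an SD of 5.46, and the level relative to the median gene was -0.14 ± 0.24 (adjusted p by limma = 1). Markers of dendritic cells, which also carry these ligands, were low in the same libraries. Of 7, only Batf3 reached 1 TPM, their summed level was 2.35 to 3.31 TPM, and Flt3 and Zbtb46 averaged 0.10 and 0.113 TPM.

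The CD80 and CD86 messages differed in their annotated transcripts. For Cd86, 89.1, 79.6 and 87.0% of TPM in replicates 1, 2 and 3 was assigned to the coding transcript Cd86-201. A short noncoding transcript, Cd86-204, took 3.27, 15.8 and 7.22% in those libraries, while kallisto's table gave it 0 in all 3. The deposited bounds on its TPM ran from under 0.01 to 1.71 in replicate 1. They ran from 0.897 to 2.26 in replicate 2 and from 0.0896 to 1.34 in replicate 3. Cd80 was split between Cd80-202 at 53.1 ± 0.40% and Cd80-201 at 41.5 ± 0.16% (SD, n = 3), which have coding parts of the same length, 918 bases. A further 5.32 ± 0.52% went to Cd80-203, whose coding part has 636 bases. Icosl-201, the main coding transcript of Icosl, held 80.7, 90.8 and 78.1%, and the retained-intron transcript Icosl-204 held 13.3, 6.30 and 13.6%.

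The genes of the PD-1 ligands are neighbours, and their messages were far apart in level. Cd274 (chr19:29367455-29388095, plus strand), which encodes PD-L1, had 86.7, 49.2 and 52.5 TPM, a mean of 62.8 ± 20.8 TPM. It lay 3.08 ± 0.08 above the median gene in log2 units (adjusted p by limma = 1.2e-06) and ranked 640 of 9123. Pdcd1lg2 (chr19:29410919-29471161, plus strand), which encodes PD-L2, begins 22823 bases after the end of Cd274 with no annotated gene between them. It had 0.07, 0.03 and 0.03 TPM from 9, 7 and 6 counts. Exact Poisson intervals of 95% ran from 4.12 to 17.1, from 2.81 to 14.4 and from 2.20 to 13.1 counts for replicates 1, 2 and 3. Such an interval lies above 0 for any count of at least 1, so it gives only the precision of the counts. Over the 3 libraries Cd274 had 74587 counts and Pdcd1lg2 had 22, a count ratio of 3390 with an exact 95% interval of 2239 to 5410. Counts are not scaled for length, and the annotated transcripts that took all the TPM were 3622 bases for Cd274 and 1649 bases for Pdcd1lg2. Intervals cover counting error only.

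Both genes carry antisense annotations, and strand use in the counting is not stated in the labels or headers. The antisense gene AC119228.1 overlaps 11055 bases of Cd274 and had 2.82, 0.46 and 1.04 TPM, far under Cd274. A930007I19Rik overlaps 6412 bases of Pdcd1lg2 and had 0.37, 0.25 and 0.29 TPM, more than Pdcd1lg2 in every library. The few Pdcd1lg2 counts can therefore not be told apart from antisense reads.

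The start regions of this neighbouring pair are shown because the levels differ so widely over a short distance. RefSeq promoter windows (GRCm38.p6, 250 bases before the start to 50 after it) were found for Cd274, Pdcd1lg2, Icosl, Cd80, Icam1 and Cd44. Capitals mark the motif match, on the plus strand of chr19:29367188-29367487 for Cd274 and chr19:29410669-29410968 for Pdcd1lg2.
Cd274: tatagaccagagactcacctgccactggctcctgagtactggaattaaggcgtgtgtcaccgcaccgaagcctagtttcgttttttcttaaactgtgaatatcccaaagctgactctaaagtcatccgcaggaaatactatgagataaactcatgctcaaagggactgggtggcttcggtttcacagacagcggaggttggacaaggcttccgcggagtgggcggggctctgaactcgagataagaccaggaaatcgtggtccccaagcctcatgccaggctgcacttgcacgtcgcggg
Pdcd1lg2: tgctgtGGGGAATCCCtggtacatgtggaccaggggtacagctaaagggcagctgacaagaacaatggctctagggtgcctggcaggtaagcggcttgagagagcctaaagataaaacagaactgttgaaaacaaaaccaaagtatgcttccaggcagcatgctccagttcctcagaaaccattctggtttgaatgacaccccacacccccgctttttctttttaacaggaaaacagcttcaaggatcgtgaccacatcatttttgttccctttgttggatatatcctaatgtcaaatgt
Both strands were searched for the NF-kB motif kB, written as GGG, A or G, any NN, C or T in each of 2 places, and CC. They were also searched for TGANTCA (AP-1), for GAAA followed by GAAA after any NN (interferon response element core), TTCNNNGAA (GAS) and TATAAA. No match overlapped another in these windows. The Pdcd1lg2 window held a kB match starting at position -244 from the RefSeq start, and the Cd274 window held none of the 5. Over the 6 windows, kB was found in 2 (Pdcd1lg2 and Icosl), AP-1 in 1 (Cd80), GAS in 1 (Icam1), TATAAA in 2 (Icam1 and Cd80) and the interferon response element core in 0. The Icam1 window held TGGAA followed directly by ATTCC, which misses the kB pattern only in its first letter and was not counted. Among all 32841 windows of the same length, the shares were 8.46% for kB, 7.81% for AP-1, 8.30% for GAS, 13.6% for TATAAA and 3.44% for the interferon response element core. A match is a run of letters and not a measured site.

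Cd83 (chr13:43784775-43803132, plus strand) had the highest level of the 10 genes when all its annotated transcripts were counted, most of it in a transcript classed as noncoding. It had 539, 272 and 275 TPM in replicates 1, 2 and 3, a mean of 362 ± 153 TPM (SD, n = 3). Relative to the median gene it stood at 5.57 ± 0.13 (SE) in log2 units (adjusted p by limma = 3.1e-07), rank 93 of 9123 tested genes. Over all transcripts, Cd83 TPM was 28.1, 28.3 and 30.0 times that of Cd86, which encodes a protein whose surface level CD83 protects. Over coding transcripts only, it was 7.25, 9.45 and 9.07 times that of Cd86. The protein-coding genes with the most similar levels over the 3 libraries were Ifitm3, Rgs1 and Ms4a7, with root mean square differences of 0.11, 0.12 and 0.15 on the log2(TPM + 0.1) scale.

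Most Cd83 signal was assigned to a transcript that the annotation classes as a retained intron. Cd83-202 took 77.0, 73.4 and 73.6% of the TPM in replicates 1, 2 and 3, and the coding transcript Cd83-201 took 23.0, 26.6 and 26.4%. In kallisto's table Cd83-202 took 68.1 ± 4.36% on average. Cd83-202 has 2158 bases and Cd83-201 has 2477. They share all but the 95 bases of the first intron, kept in Cd83-202, and 414 bases of Cd83-201 that Cd83-202 lacks. The assignment of Cd83 reads to these 2 classes rests on these stretches and on the Cd83-201 junction where the intron is removed. The intron (chr13:43785251-43785345) is printed because the class of most Cd83 TPM turns on it, with the intron in capitals, 15 exon bases in lower case on each side, and the usual GT at its start and AG at its end.
Cd83-202: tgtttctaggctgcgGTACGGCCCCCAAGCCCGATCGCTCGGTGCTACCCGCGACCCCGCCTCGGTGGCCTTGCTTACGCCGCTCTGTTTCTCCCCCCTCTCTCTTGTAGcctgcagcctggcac
Counting only transcripts annotated as protein-coding, an alternative chosen after seeing these values, put Cd83 at 3.70 relative to the median gene in log2 units, still above it with an adjusted p by limma of 1.0e-06 (1.3e-10 to 7.8e-06 over all alternatives). Cd83 then lost first place to Icam1, with 124, 72.4 and 72.4 TPM in coding Cd83 transcripts and 247, 134 and 89.6 TPM in coding Icam1 transcripts in replicates 1, 2 and 3. Whether reads covered the intron itself was not tested.

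Cd69 (chr6:129267325-129275436, minus strand) had 10.2, 5.93 and 5.50 TPM, a mean of 7.20 ± 2.58 TPM. It was level with the median gene at -0.04 ± 0.10 in log2 units (adjusted p by limma = 1), and 98.8 ± 0.16% of its TPM went to the coding transcript Cd69-201. S1pr1, whose product CD69 binds, had 16.0, 10.7 and 13.4 TPM, more than Cd69 in each library.

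**Figure D2:**
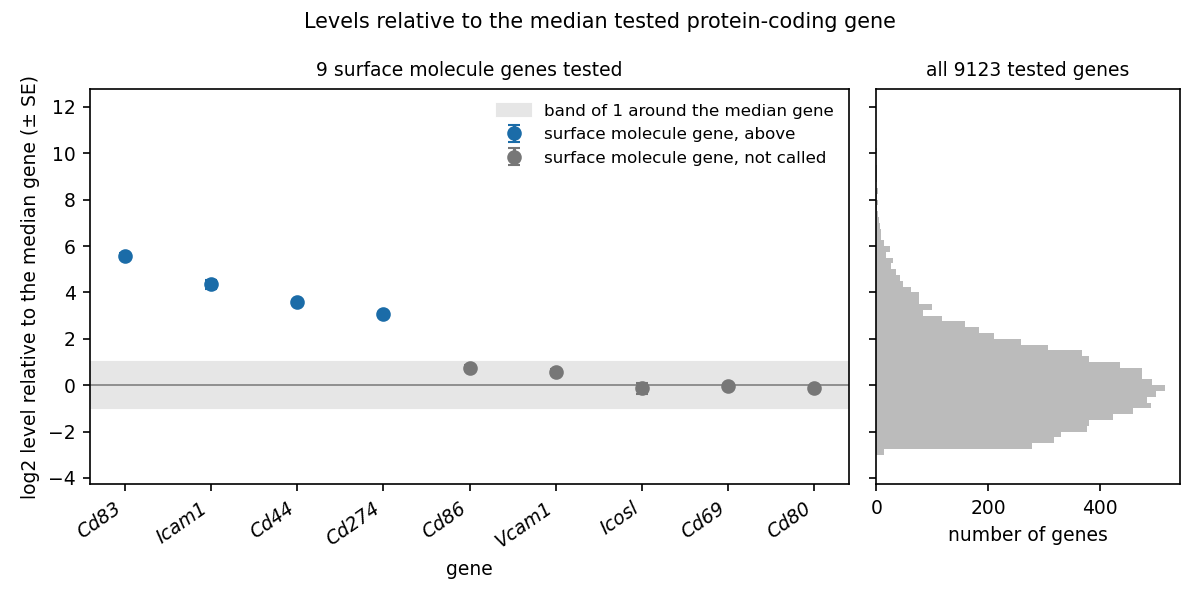
Left, the log2 level (y axis) of the 9 tested genes relative to the median tested protein-coding gene, with SE and the band of 1 shaded. Cd83, Icam1, Cd44 and Cd274 lie between 3.08 and 5.57, and the other 5 genes lie inside the band, between -0.14 and 0.74. Right, the number of genes at each level among all 9123 tested genes.

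The adhesion molecules held 2 of the 3 highest levels. Icam1 (chr9:21015985-21028817, plus strand) had 252, 136 and 91.6 TPM in replicates 1, 2 and 3, a mean of 159.6 ± 82.7 TPM. It lay 4.34 ± 0.20 above the median gene in log2 units (adjusted p by limma = 7.3e-06), rank 252. Icam4 begins 555 bases after Icam1 on the same strand, and Icam5 follows 1477 bases after Icam4. They encode other members of the ICAM family and averaged 0.083 and 0.017 TPM, so the high level was not shared by these adjacent genes. Nearly all Icam1 TPM, 98.3 ± 0.72%, went to the coding transcript Icam1-201. The antisense gene Gm47079 overlaps 511 bases of Icam1 and averaged 0.137 TPM. Rpl31, Clic4 and Ccrl2 had the levels most like those of Icam1, with root mean square differences of 0.21, 0.23 and 0.24 on the log2(TPM + 0.1) scale.

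Vcam1 (chr3:116109949-116129688, minus strand) had 17.8, 8.15 and 8.20 TPM, a mean of 11.4 ± 5.53 TPM. It stood at 0.57 ± 0.13 relative to the median gene in log2 units (adjusted p by limma = 1). Icam1 exceeded it 14.2, 16.6 and 11.2 times in replicates 1, 2 and 3. Endothelial cells are known for both messages. Of 6 endothelial markers, Vwf and Kdr averaged 9.18 and 2.28 TPM, while Pecam1, Cdh5, Tek and Cldn5 averaged 0.177 TPM or less. The summed level of the 6 endothelial markers was 16.6, 8.12 and 10.6 TPM in replicates 1, 2 and 3, and its part in these levels was not tested.

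A shorter coding form of Vcam1 was also assigned reads. Vcam1-203 took 12.4, 7.99 and 13.0% of Vcam1 TPM in replicates 1, 2 and 3, against 85.1, 91.0 and 83.7% for the long form Vcam1-201. Its coding part has 1035 bases and that of Vcam1-201 has 2217, and it ends in a stretch of its own of 107 coding bases (chr3:116123687-116123793, minus strand). Mouse VCAM-1 is known in a short form held in the membrane by a lipid anchor as well as in the long transmembrane form. The stretch is printed in capitals after the last 15 bases of the exon before it, because it distinguishes the forms.
Vcam1-203: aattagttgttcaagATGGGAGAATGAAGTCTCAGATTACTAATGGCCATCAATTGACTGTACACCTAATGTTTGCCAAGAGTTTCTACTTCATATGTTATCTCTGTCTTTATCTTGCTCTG
Of the 2532 bases of Vcam1-203, 1514 lie within introns of Vcam1-201, and reads there could come from unspliced Vcam1 RNA or from Vcam1-203, which cannot be told apart. In kallisto's table the share of Vcam1-203 was 12.3, 7.84 and 13.4%.

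Cd44 (chr2:102811141-102901665, minus strand) had 119.6, 61.4 and 89.6 TPM, a mean of 90.2 ± 29.1 TPM. It lay 3.59 ± 0.09 above the median gene in log2 units (adjusted p by limma = 6.2e-07), rank 465. Asah1, Pirb and Emp1 were the genes of most similar level, with root mean square differences of 0.04, 0.04 and 0.05 on the log2(TPM + 0.1) scale. The annotation has 8 coding transcripts of Cd44, built from 9 constant coding exons and 10 variable ones placed after the fifth constant exon. The variable exons have between 90 and 207 bases, all multiples of 3, and lengthen the part of CD44 outside the cell near the membrane.

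The Cd44 signal was divided between the standard form and a form with variable exons. Cd44-203, which skips all variable exons, took 43.5, 42.7 and 42.1% of Cd44 TPM in replicates 1, 2 and 3, or 42.8 ± 0.69%. Cd44-207, which has 5 variable exons of 636 bases in all, took 46.6, 53.5 and 53.2%, or 51.1 ± 3.91%. The other coding transcripts took little. Cd44-201 with all 10 variable exons held 1.48, 1.05 and 0.73%, and the remaining 5 held at most 0.36% each. The retained-intron transcript Cd44-209 took 7.76, 2.17 and 3.36%. In sum, transcripts with variable exons took 48.8, 55.1 and 54.5%. The junctions after constant exon 5 are printed because they distinguish these forms, with the last 15 bases of that exon (ending at chr2:102853015) in lower case and the start of the next exon used in capitals, at chr2:102828610 in Cd44-203 and at chr2:102842377 in Cd44-207.
Cd44-203: gcaccttggccaccaGAGATCGAGACTCAT
Cd44-207: gcaccttggccaccaATATAGACAGAATCA
The exon joined in Cd44-203 is constant and has 69 coding bases, and that joined in Cd44-207 is variable exon 5, of 117 bases.

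**Figure D3:**
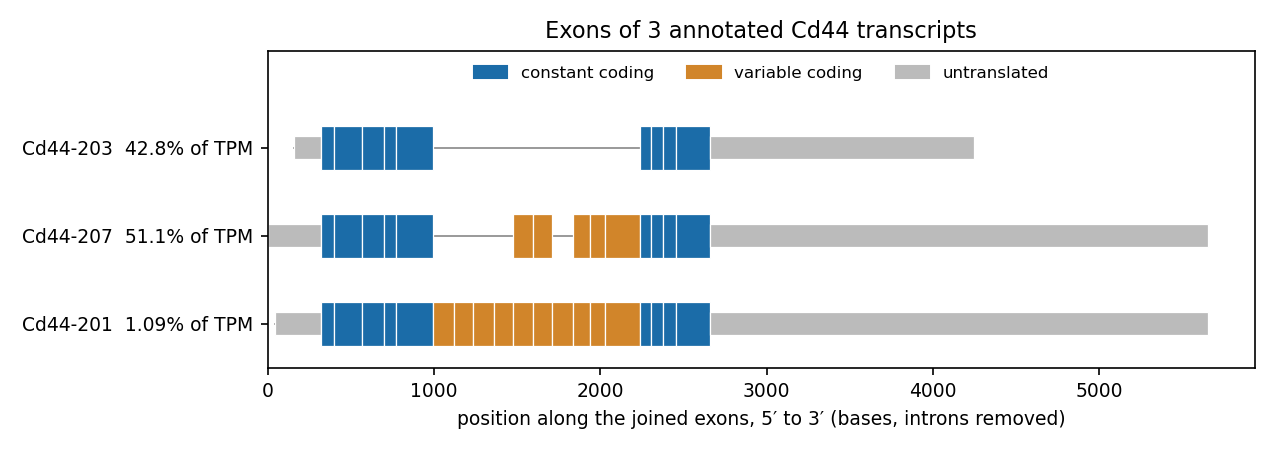
Exons of Cd44-203, Cd44-207 and Cd44-201 drawn to scale along the joined exons (x axis in bases, introns removed), with constant coding, variable coding and untranslated parts coloured and the mean share of Cd44 TPM beside each name. Cd44-207 differs from Cd44-203 by 636 variable bases and by a longer 3′ end, which Cd44-201 also has. In all, Cd44-203 lacks 2197 bases of Cd44-207, some of them outside these parts.

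The split is tied to another difference between the annotated transcripts. Only Cd44-201 and Cd44-207 carry the whole of the last 1406 bases of the 3′ end, so reads in that end were assigned to transcripts with variable exons whatever their middle part held. Transcripts with an end longer than that of Cd44-203 took 48.2, 54.6 and 54.1% in replicates 1, 2 and 3, close to the share of the variable forms in each library. Whether the variable share follows the variable exons, the long 3′ end or the other bases that Cd44-203 lacks was not tested. In kallisto's table the division among variable forms was different. Cd44-201 took 21.2, 4.97 and 7.25% and Cd44-207 took 24.6, 45.8 and 43.6%, while Cd44-203 was at 43.8, 45.5 and 44.2%. Esrp1 and Esrp2, splicing factors known to include variable Cd44 exons in epithelial cells, were at 0 in all 3 libraries and at 0.01, 0 and 0.01 TPM.

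In order of mean TPM the genes ran Cd83, Icam1, Cd44, Cd274, Cd86, Vcam1, Icosl, Cd69, Cd80 and Pdcd1lg2. Over coding transcripts only, Icam1 stood before Cd83, Vcam1 before Cd86, and Icosl after Cd80. Neighbours were set apart where the log2 difference had the same sign in all 3 libraries and its mean exceeded its SD, which held for 7 of 9 pairs. The pairs came from sorting the mean TPM of these same libraries, so this count describes the order and does not test it. An exact sign-flip permutation test (2-sided) gave each of these 7 pairs p = 0.25, the smallest that 3 libraries allow. Icosl and Cd69 did not differ beyond their spread, with differences of 0.44, -0.22 and -0.52 (log2) in replicates 1, 2 and 3 (exact permutation p = 0.75), and neither did Cd69 and Cd80, with 0.19, 0.19 and -0.09 (exact permutation p = 0.5). The step between Icam1 and Cd44 was 1.07 and 1.14 in replicates 1 and 2 and 0.03 in replicate 3. The step between Cd86 and Vcam1 was small in every library, at 0.11, 0.24 and 0.16.

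Most members varied together between libraries. In TPM, replicate 1 was the highest for all 10, as for 95.9% of all tested genes. After scaling to the library's median gene, replicate 1 was still the highest for all 9 tested members, against 33.2% of all tested genes. Replicate 3 was the lowest for 8 of the 9, against 36.4% of all tested genes, and the exception was Cd44, which was lowest in replicate 2. The size of this difference ran from 1.14 times between the highest and lowest library for Cd80 to 2.74 times for Icosl, and it was 2.08 times for Icam1. Icosl stood at 1.52, 0.878 and 0.555 times the median gene in replicates 1, 2 and 3, and Icam1 at 27.7, 23.5 and 13.4 times. Cd44 stood at 13.2, 10.7 and 13.1 times, without the low value of replicate 3 that the others had.

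The spread between libraries beyond counting error was estimated as edgeR's tagwise biological coefficient of variation (BCV). It was 0.313 for Icosl and 0.244 for Icam1, higher than in 94.8 and 86.5% of the 13026 genes with enough counts. It was 0.173 for Vcam1, 0.171 for Cd86 and 0.159 for Cd83, between 0.118 and 0.130 for Cd274, Cd44 and Cd69, and lowest for Cd80 at 0.090. The median over the 9 genes was 0.159, against 0.122 over all 13026 genes, and 6 of the 9 lay above that median. This count fell to 2 without replicate 1 and to 1 without the filter on low counts, which raised the median over all genes to 0.285. The members' median was 0.125 without replicate 1 and 0.123 without replicate 3, against 0.130 and 0.120 over all genes. Compared with effective library sizes by chi-square tests, counts were unequal for all 9 (largest Benjamini-Hochberg adjusted p = 0.0016), as for 62.5% of all genes. With many counts this test calls small differences. Each of the 9 had at least 1064 counts in every library, and the share over all genes is not matched for that.

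**Figure D4:**
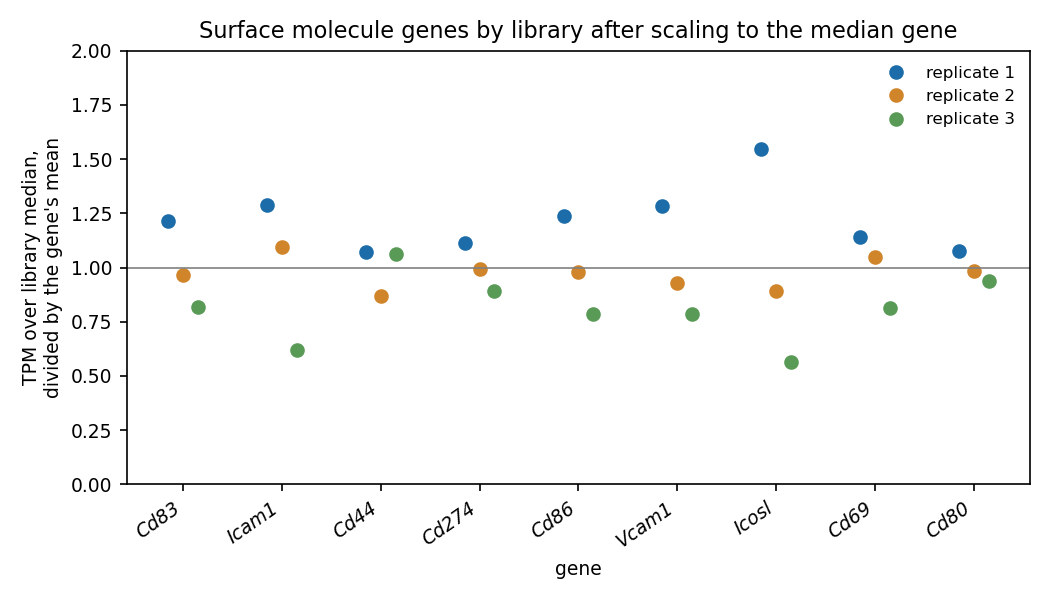
TPM over the library's median tested gene, divided by the gene's own mean (y axis), for the 9 tested genes in replicates 1, 2 and 3 (points). Replicate 1 is the highest point for all 9 genes, though nearly tied with replicate 3 for Cd44, and replicate 3 is the lowest for all but Cd44.

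Intron-containing transcripts of these genes also differed between libraries. The share of TPM in transcripts annotated as retained introns was lowest in replicate 2 for 5 of the 6 members that have such a transcript (Cd44, Cd83, Icam1, Icosl and Vcam1, but not Cd69), and in 48.9% of the 5769 tested genes that have such a transcript. For Icam1 it was 2.01, 0.878 and 2.19% in replicates 1, 2 and 3, and for Vcam1 2.08, 0.982 and 2.44%. For Cd83 it was 77.0, 73.4 and 73.6%, with replicates 2 and 3 nearly equal. For Icosl it was the rest of a coding share of 81.6, 91.9 and 79.0%. The nuclear RNAs Malat1 and Neat1 were also lowest in replicate 2, at 45.9, 21.2 and 47.0 times and 4.28, 2.15 and 5.24 times the median gene in replicates 1, 2 and 3. Their part in these shares was not tested. Over all protein-coding genes, retained-intron transcripts took 3.35, 2.66 and 2.90% of TPM.

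**Figure D5:**
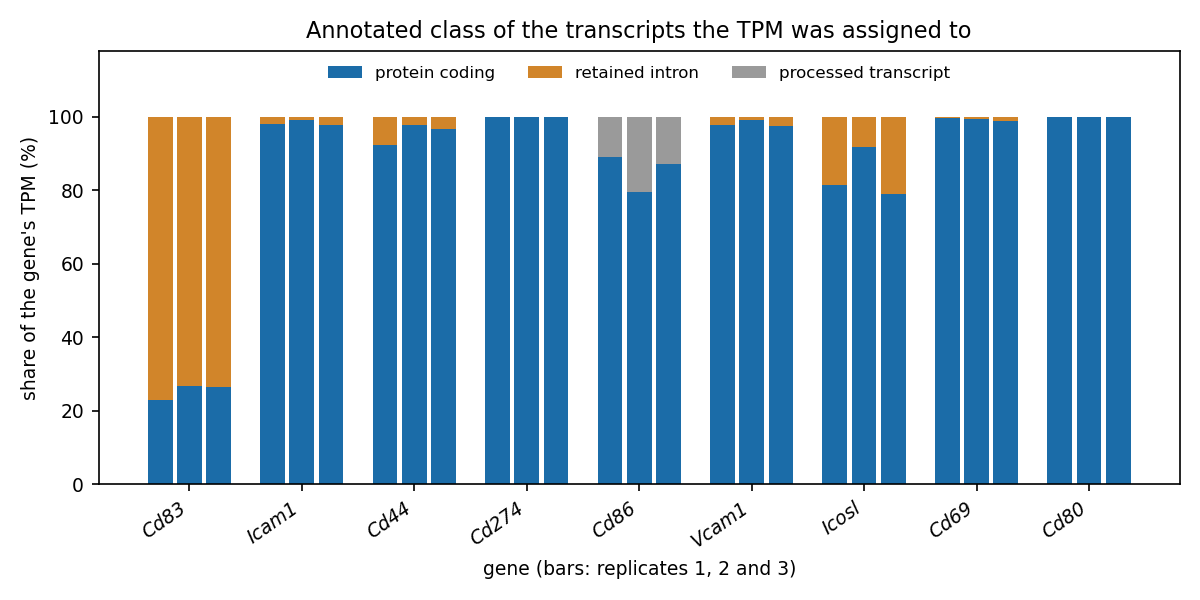
Share of each gene's TPM (y axis, percent) assigned to transcripts annotated as protein-coding, retained intron or processed transcript, with a bar for each of replicates 1, 2 and 3. Cd83 is mostly assigned to its retained-intron transcript, Icosl, Cd44 and Cd86 have noncoding shares that vary between replicates, and Cd274 and Cd80 are wholly protein-coding.

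Genes that work with these molecules were described from 8 lists of 71 genes found in the tables, of which 45 reached 1 TPM. Of these, 27 lay above the median gene, 10 below it and 8 were not called, while 26 genes were under 1 TPM. Among all 9123 tested genes, 26.3% lay above and 24.5% below, which is the background for each list that follows. The lists were chosen with earlier results of these data known, so their counts describe only the genes chosen. Of the 5 receptors through which T cells bind such ligands, only Cd28, which encodes the activating receptor of CD80 and CD86, reached 1 TPM. Cd28 had 106.5, 59.9 and 80.2 TPM and lay 3.47 ± 0.07 above the median gene in log2 units (adjusted p by limma = 3.6e-07). Btla, Icos, Ctla4 and Pdcd1 averaged 0.057 TPM or less. The 7 T cell markers summed to 0.11 to 0.31 TPM, with Cd3g and Cd2 at 0 TPM in all 3 libraries. The coding transcript Cd28-201 took 99.89, 99.97 and 99.88% of Cd28 TPM.

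Among the 6 other B7 and B7-like genes, only Vsir, which encodes the inhibitory ligand VISTA, reached 1 TPM. It had 67.2, 33.6 and 46.9 TPM in replicates 1, 2 and 3 and lay 2.72 ± 0.08 above the median gene in log2 units (adjusted p by limma = 3.3e-06). Cd276 and Vsig4 averaged 0.13 and 0.023 TPM, and Vtcn1 was at 0 in all 3 libraries. All 10 listed other checkpoint surface genes reached 1 TPM, with a list median of 33.6, 17.7 and 21.6 TPM. Of these genes, 7 lay above the median gene (26.3% of all tested genes did), 2 below (24.5%) and 1 was not called. The choice of this list, made with earlier results known, may itself have set these counts. Sirpa, the macrophage receptor of the "do not eat me" ligand CD47, averaged 488 ± 139 TPM, above each of the 10 members. Lgals9 averaged 76.3 ± 20.4, Cd47 72.0 ± 27.9 and Cd200r1, an inhibitory receptor of myeloid cells, 25.9 ± 7.17 TPM, and each lay above the median gene. Of 8 SLAM family genes found, 4 lay above, 1 below, 1 was not called and 2 were under 1 TPM. Cd84, Slamf7, Ly9 and Cd48 averaged 130.0, 108, 79.4 and 57.4 TPM.

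The 8 listed genes of integrins that bind ICAM-1 and VCAM-1 were all above 1 TPM. Of these 8, 4 lay above the median gene (26.3% of all tested genes did) and 4 below it (24.5%). The β chains Itgb1 and Itgb2 averaged 107 ± 25.8 and 95.9 ± 24.4 TPM. Itga4, the α chain of the VCAM-1 receptor VLA-4, averaged 32.4 ± 11.5 TPM, and Itgam, the α chain of the ICAM-1 receptor Mac-1, 21.7 ± 7.72 TPM. Itgal, the α chain of the ICAM-1 receptor LFA-1, was below the median gene at 1.63 ± 0.78 TPM. Of 12 other leukocyte adhesion genes, 2 lay above (Alcam at 50.7 and Selplg at 50.5 TPM), 2 below (Sele at 2.58 and Icam2 at 1.05 TPM) and 8 were under 1 TPM.

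Of 15 genes in a list drawn up around CD44, 4 lay above the median gene, none below, 4 were not called and 7 were under 1 TPM. Msn, which links CD44 to actin, averaged 111 ± 27.9 TPM, and Cd74, a surface partner of CD44, 109 ± 59.4 TPM. The scavenger receptor gene Stab1 averaged 108 ± 35.6 TPM, and Rdx, a relative of Msn, 17.7 ± 3.87 TPM. The hyaluronan synthases Has1, Has2 and Has3 averaged 0.017 TPM or less. Of 7 genes listed for the surface levels of these proteins, 4 lay above, 1 below and 2 were not called. The list includes S1pr1, whose product does not set such a level but is held inside the cell by CD69. The sheddase genes Adam17 and Adam10 averaged 31.2 ± 13.7 and 19.1 ± 5.85 TPM. Cmtm6, whose product keeps PD-L1 from lysosomal breakdown, averaged 24.1 ± 7.36 TPM, and March1, the ligase opposed by CD83, 19.6 ± 4.43 TPM.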

How the data were processed

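For each library the deposited files give, per the file headers, a gene table with expected counts and TPM, a transcript table with TPM, bounds on TPM and the percent of the gene's TPM in each transcript (columns named as RSEM writes them), and another transcript table with estimated counts and TPM (columns named as kallisto writes them). Per the deposited description files the build is mm10 with GENCODE M21; aligner, versions and use of strand: not given in the sources used here. The members, lists and tests were chosen with earlier results of these data known.

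The 55536 annotated genes matched GENCODE M21, and other rows (0.260, 0.0933 and 0.0577% of counts in replicates 1, 2 and 3) were left out. No pair of libraries had equal counts in more than 3.77% of genes. From the deposited TPM, log2(TPM + 0.1) minus the library median over protein-coding genes with a mean of at least 1 TPM was tested with limma 3.58.1 in R 4.3.3 (treat, band of 1, trended prior, threshold 0.05 after Benjamini-Hochberg adjustment). The log2 scale with a pseudocount understates differences of low genes. Deposited expected counts were rounded to whole numbers for edgeR 4.0.16 (TMM, filterByExpr, intercept only). Both were tested on simulated data. Other steps used Python 3.11.15 and scipy 1.17.1. Named genes are the members, the 4 highest of each list, the 3 genes closest in level to each of the 3 highest members, transcripts of at least 10% of a member's TPM, overlapping genes, Icam4 and Icam5; Pdcd1, Itgal, S1pr1, the Has and Esrp genes, Malat1, Neat1, some markers at or near 0 and smaller transcripts were named after their values were seen. The alternatives tried were kallisto's values, a TPM rescaled to nuclear coding genes, a pseudocount of 1, no low-value filter, a band of 0.5, other count scaling, leaving out each replicate and, added after seeing the data, protein-coding transcripts only.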

Additional observations from a re-analysis of the deposited data

How the results depend on the processing

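The calls of Cd83, Icam1, Cd44 and Cd274 above the median gene kept their direction and threshold under all 9 alternatives for levels. Without the filter on low values, which tests 14388 genes and lowers the median gene, 8 members lay above and 1 (Pdcd1lg2) below it, and 4986 and 5463 genes lay above and below. With kallisto's TPM, which tests 7720 genes, 1427 genes lay below. Members near the median gene changed sign: without the filter Icosl stood at 1.22, Cd69 at 1.32 and Cd80 at 1.23, leaving out a replicate moved Icosl between -0.55 and 0.21 and Cd69 between -0.18 and 0.10, and over protein-coding transcripts only Cd69 stood at 0.063 (log2). Leaving out a replicate kept 4 members above and 0 below, with 2252 to 2381 genes above and 2062 to 2189 below. The companion genes above the median gene numbered 22 to 31 over all settings, and 27 whichever replicate was left out. The pairs set apart in the order numbered 6 to 8, and kallisto's TPM, like leaving out replicate 1, moved Icosl, Cd69 and Cd80 among themselves. The median BCV of the members ran from 0.123 to 0.175 when a replicate was left out. The share of Cd44 in the form without variable exons was 44.5% in kallisto's table, 44.8% over coding transcripts and 42.4 to 43.1% when a replicate was left out. The median coding share, 98.2%, ran from 97.8 to 98.5% in the same way. No paired analysis was possible because there is 1 group. Pdcd1lg2, with 22 counts in all, is the only member whose level is limited by depth.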
